A study of Mus musculus with 12 samples.

Results

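Iron handling was followed through 9 genes of erythroid iron uptake and iron sensing: Tfrc, Tfr2, Slc11a2, Steap3, Slc25a37, Ncoa4, Aco1, Ireb2 and Iscu. They were chosen by name with earlier results of these data known, as were the gene lists used below. Counts of them beside the share of all genes are therefore a description and no test. Values of the 9 genes come from the 11 probe sets, of 21780 with a single gene symbol, that the platform annotation gives to these symbols, averaged per gene. All 9 were measured among 19935 genes in all, 7 through 1 probe set each and Ncoa4 and Iscu through 2 each. The arrays came from CD71+ cells enriched with magnetic beads from hind leg bone marrow of male C57BL/6 mice aged 10 to 12 weeks, kept free of specific pathogens, with 3 mice and 3 arrays in each of 4 groups. CD70TG*Ifng-/- mice carry a CD70 transgene and lack interferon-gamma, CD70TG mice carry the transgene with Ifng intact, Ifng-/- mice lack interferon-gamma without the transgene, and WT mice have neither change. CD70 binds CD27, a costimulatory receptor of T cells, and the study set the transgene against its absence with and without interferon-gamma. The CD70TG samples are labelled as clone F13, so they may stand for 1 transgenic line, and the promoter that drives the transgene is not given in the sources used here. Each array is 1 mouse by the numbers in the labels.

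Red cell precursors take up most of the iron that the body uses, and nearly all of it goes into haem. Iron-loaded transferrin binds the transferrin receptor at the cell surface and enters an endosome, where the iron is reduced, carried across the membrane and passed to the mitochondrion for haem and iron-sulphur clusters, while ferritin holds iron in reserve. The iron regulatory proteins sense iron in the cytosol and bind iron-responsive elements in messenger RNAs, which stabilises the transferrin receptor message and holds back ferritin translation when iron is scarce.

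Values are log2 values relative to each probe set's median over the 12 arrays, so a value of 0 is the middle of the series and a difference of 1 is a doubling, but levels of different genes cannot be compared. From the rounding of the deposited numbers, probe sets of 7 of the 9 genes lay at 8 or above on the log2 scale before centring. Those of Tfr2 and Aco1 did not show the rounding of that level on all 12 arrays and form the lower class. By the same measure 17 of 18 late erythroid genes and 1 of 24 macrophage markers lay in the higher class. Several globin genes are not analysed here. Within a group, the median gene differed by 0.085 to 0.14 between 2 arrays. The log2 difference of Cd70 was 0.26 ± 0.12 in CD70TG against WT and 0.39 ± 0.12 in CD70TG*Ifng-/- against Ifng-/-, and neither passed the test (limma, adjusted p = 0.180 and 0.135). Averaged over both Ifng genotypes Cd70 rose with the transgene (0.33 ± 0.085, limma, adjusted p = 0.0324), the direction that the transgene labels give. The Ifng probe set did not pass in the Ifng-/- arrays (-0.10 ± 0.093 against WT, limma, adjusted p = 0.632), so it does not check the Ifng labels. In these bulk samples, fewer cells of a type and less RNA per cell cannot be told apart.

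With Ifng intact, the transgene came with lower Ncoa4 and Iscu and higher Aco1 and Tfr2, while the receptor Tfrc and the carriers and reductase of the uptake route did not pass the test. Differences were tested with limma on all genes, with Benjamini-Hochberg adjustment over 19935 genes and a threshold of 0.05, and a gene is said to rise or fall only when it passed. In CD70TG against WT, 2 of the 9 genes rose, where 8.23% of all genes rose, and 2 fell, where 2.7% of all genes fell. Among all genes in this comparison, 17.6% were higher and 13.5% lower in CD70TG with no overlap between the arrays of the 2 groups. The median difference of the 9 genes was 0.15 on the log2 scale against -0.023 over all genes. Genes of the higher level class had a median difference of 0.19 in this comparison, and with each array centred within its level classes the 7 genes of that class came out lower, Ncoa4 for example at -0.92.

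**Figure D1:**
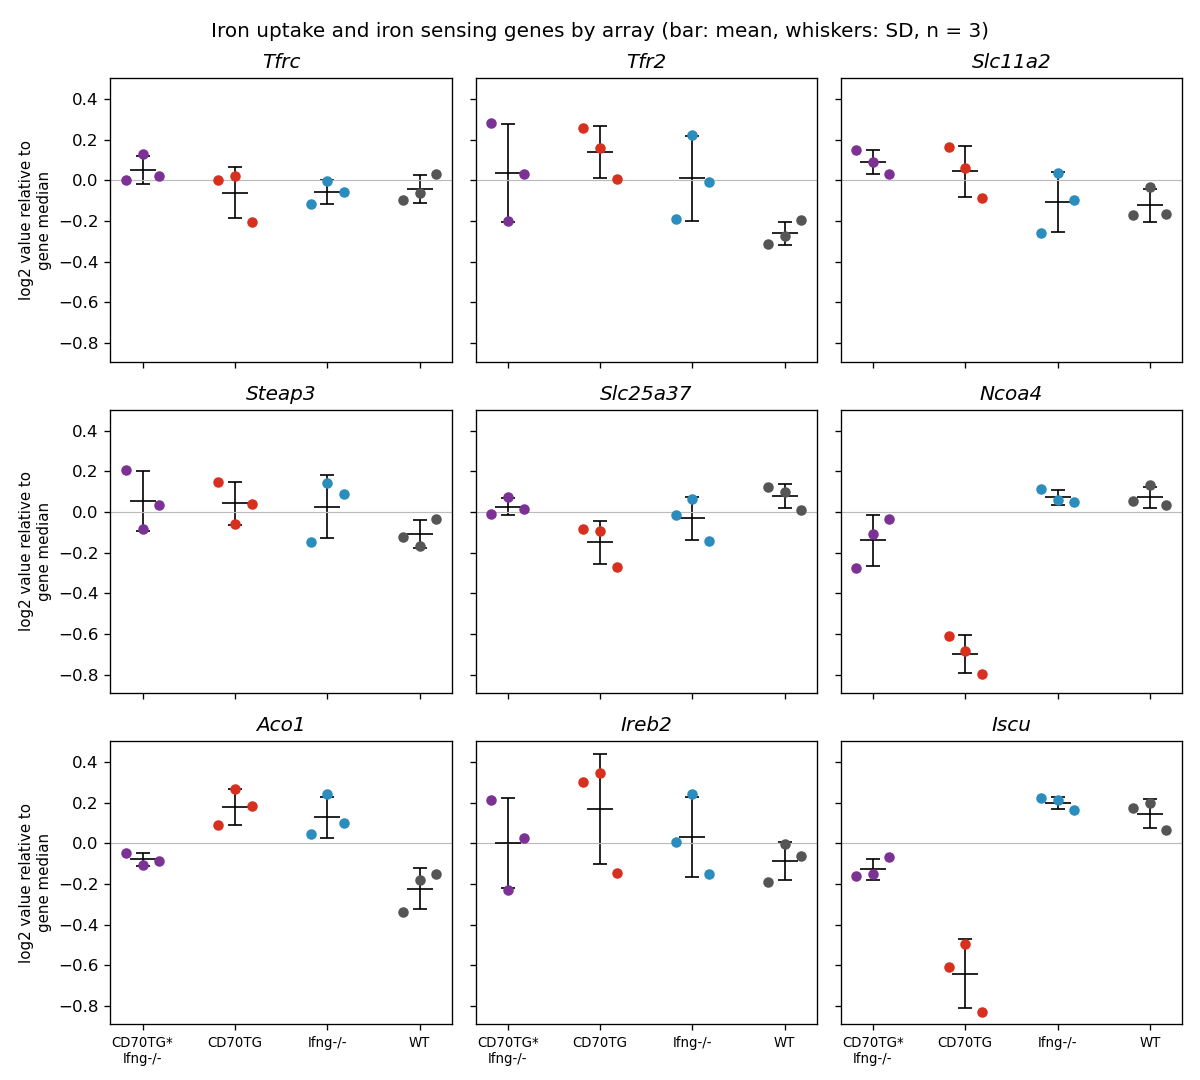
Log2 value relative to the gene's median (vertical axis) for each of the 9 genes in CD70TG*Ifng-/-, CD70TG, Ifng-/- and WT arrays; points are arrays, the bar is the mean and the whiskers the SD of 3 mice. The CD70TG arrays of Ncoa4 and Iscu lie at or below -0.49, under every other array, while the Tfrc values of CD70TG and WT overlap.

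Tfrc encodes CD71, the transferrin receptor and also the surface protein used to enrich the cells, so its level describes the enriched cells and is no finding between groups. Its log2 values were 0.00063, 0.13 and 0.024 in CD70TG*Ifng-/-, 0.0011, 0.022 and -0.20 in CD70TG, -0.12, -0.00063 and -0.054 in Ifng-/-, against -0.096, -0.062 and 0.034 in WT. The lowest value was that of CD70TG 3 and the highest that of CD70TG*Ifng-/- 2, and the groups overlapped except that all CD70TG*Ifng-/- arrays lay above all Ifng-/- arrays, as 9.32% of all genes did. The difference was -0.019 ± 0.079 (SE, n = 3 per group) in CD70TG against WT (limma, adjusted p = 0.902), with a 95% confidence interval of -0.19 to 0.15. It was 0.11 ± 0.079 in CD70TG*Ifng-/- against Ifng-/- (limma, adjusted p = 0.618).

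Tfr2, a second transferrin receptor that associates with the erythropoietin receptor in erythroid cells, was higher in CD70TG than in WT. Its values were 0.28, -0.20 and 0.031 in CD70TG*Ifng-/-, 0.26, 0.16 and 0.0054 in CD70TG, -0.19, 0.22 and -0.0054 in Ifng-/-, against -0.31, -0.28 and -0.20 in WT. All 3 CD70TG arrays lay above all 3 WT arrays, as for 17.6% of all genes, and so did all 3 Ifng-/- arrays, as for 9.43%. The CD70TG*Ifng-/- and Ifng-/- arrays were widely spread. Of the CD70TG*Ifng-/- arrays only CD70TG*Ifng-/- 2 (-0.199) lay below the highest WT array (-0.196). Tfr2 rose 1.32-fold in CD70TG against WT (log2 difference 0.40 ± 0.12, SE, n = 3 per group, limma, adjusted p = 0.0487). This call was close to the threshold: it was lost in 12 of 22 alternative settings, among them leaving out CD70TG 1 (limma, adjusted p = 0.191), CD70TG 2 (0.138), WT 1 (0.152), WT 2 (0.105), WT 3 (0.0834), Ifng-/- 3 (0.0651) or CD70TG*Ifng-/- 3 (0.0699). Over those settings the adjusted p ran between 0.00346 and 0.191, with a difference of 0.34 to 0.47.

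Slc11a2, the divalent metal transporter that carries ferrous iron out of the endosome, had values of 0.15, 0.091 and 0.030 in CD70TG*Ifng-/-, 0.16, 0.059 and -0.085 in CD70TG, -0.26, 0.039 and -0.098 in Ifng-/-, against -0.17, -0.030 and -0.17 in WT. The 2 groups with the transgene had the higher means, and the arrays of CD70TG and WT overlapped. Neither 0.17 ± 0.090 in CD70TG against WT (limma, adjusted p = 0.255) nor 0.20 ± 0.090 in CD70TG*Ifng-/- against Ifng-/- (limma, adjusted p = 0.397) passed. Steap3, the endosomal reductase that turns ferric into ferrous iron, had values of 0.21, -0.085 and 0.033 in CD70TG*Ifng-/-, 0.15, -0.061 and 0.040 in CD70TG, -0.15, 0.14 and 0.086 in Ifng-/-, against -0.13, -0.17 and -0.033 in WT. Its groups overlapped in every pairwise comparison, and it was 0.15 ± 0.096 in CD70TG against WT (limma, adjusted p = 0.344).

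Slc25a37, known as mitoferrin-1, imports iron into the mitochondria of erythroid cells. It had values of -0.011, 0.073 and 0.014 in CD70TG*Ifng-/-, -0.084, -0.095 and -0.27 in CD70TG, -0.015, 0.065 and -0.14 in Ifng-/-, against 0.12, 0.099 and 0.011 in WT. All 3 CD70TG arrays lay below all 3 WT arrays, with CD70TG 3 the lowest of the series. The difference of -0.23 ± 0.078 in CD70TG against WT did not pass (limma, adjusted p = 0.0793). With each array centred within its level classes it was -0.38 and passed (limma, adjusted p = 0.00581), and with array weights it was -0.19 and passed (adjusted p = 0.0439). It passed in only these 2 of 22 alternative settings, over which the limma adjusted p reached 0.215.

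Ncoa4, the cargo receptor that brings ferritin to autophagic degradation and so frees its iron, was lowest in CD70TG. Its values were -0.28, -0.11 and -0.035 in CD70TG*Ifng-/-, -0.61, -0.68 and -0.80 in CD70TG, 0.11, 0.056 and 0.046 in Ifng-/-, against 0.052, 0.13 and 0.035 in WT. The 3 CD70TG arrays stood apart below all 9 others, and the CD70TG*Ifng-/- arrays lay between them and the arrays without the transgene. All arrays with the transgene thus lay below all arrays without it, as for 1.89% of all genes. The share of genes with the CD70TG arrays below all 9 others was not counted. Ncoa4 was 1.70-fold lower in CD70TG than in WT (log2 difference -0.77 ± 0.079, SE, n = 3 per group, limma, adjusted p = 5.76e-05) and ranked 37 by p among all genes. The call held in 22 of 22 alternative settings, with differences of -0.92 to -0.66 and adjusted p-values up to 6.45e-04.

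Iscu, the scaffold on which the mitochondrion assembles iron-sulphur clusters, had a similar pattern. Its values were -0.16, -0.15 and -0.067 in CD70TG*Ifng-/-, -0.61, -0.49 and -0.83 in CD70TG, 0.22, 0.21 and 0.16 in Ifng-/-, against 0.18, 0.20 and 0.066 in WT. The CD70TG arrays were the lowest of the series and the CD70TG*Ifng-/- arrays came next, with no overlap between either group and the 6 arrays without the transgene. Of all genes, 1.89% were lower in the arrays with the transgene with no such overlap. Iscu was 1.73-fold lower in CD70TG than in WT (-0.79 ± 0.084, SE, n = 3 per group, limma, adjusted p = 8.50e-05) and passed in 22 of 22 alternative settings. Across the 12 arrays the values of Ncoa4 and Iscu differed by 0.085 on average, which was among the smallest of the 36 pairs of the 9 genes; only Tfrc and Slc25a37, both of small range, were closer at 0.084.

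Both genes were read by a pair of probe sets that the annotation gives to the same symbol. The probe sets of Ncoa4, 10399198 and 10413839, differed by at most 0.023 on any array, and those of Iscu, 10461108 and 10524417, by at most 0.19. Taken singly, the Ncoa4 probe sets fell by 0.78 and 0.76 in CD70TG against WT (limma, adjusted p = 6.14e-05 and 6.85e-05 over 21780 probe sets), and the Iscu probe sets fell by 0.78 and 0.80 (limma, adjusted p = 1.14e-04 and 1.51e-04). Whether a probe set of either pair also reads a near-identical copy elsewhere in the genome cannot be told from these files, so the pairs are not independent measurements.

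**Figure D2:**
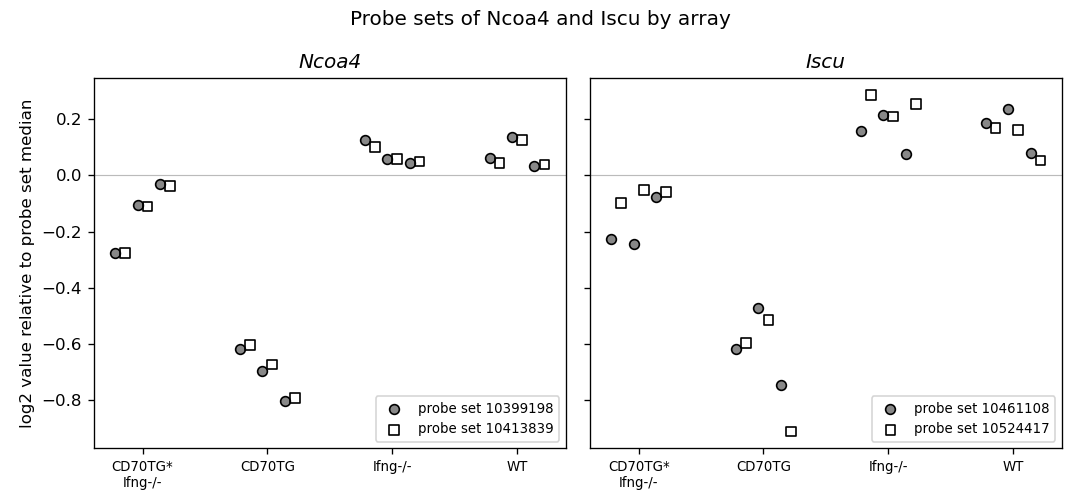
Log2 value relative to the probe set's own median (vertical axis) in CD70TG*Ifng-/-, CD70TG, Ifng-/- and WT arrays, with circles and squares for the 2 probe sets of Ncoa4 (left) and Iscu (right). The 2 Ncoa4 probe sets nearly coincide on each array, and the Iscu probe sets differ by up to 0.19.

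Aco1 and Ireb2 encode the iron regulatory proteins 1 and 2. Aco1 is a cytosolic aconitase when it carries an iron-sulphur cluster and binds iron-responsive elements when it does not, and Ireb2 is degraded when iron is plentiful. Aco1 had values of -0.046, -0.11 and -0.085 in CD70TG*Ifng-/-, 0.088, 0.27 and 0.19 in CD70TG, 0.046, 0.24 and 0.10 in Ifng-/-, against -0.34, -0.18 and -0.15 in WT. The WT arrays were the 3 lowest of the series, the CD70TG*Ifng-/- arrays came next, and those of CD70TG and Ifng-/- overlapped at the top. Aco1 rose 1.32-fold in CD70TG against WT (0.40 ± 0.079, SE, n = 3 per group, limma, adjusted p = 0.00630) and passed in 22 of 22 alternative settings, with adjusted p-values up to 0.0380. Ireb2 had values of 0.21, -0.23 and 0.026 in CD70TG*Ifng-/-, 0.30, 0.34 and -0.14 in CD70TG, 0.0041, 0.24 and -0.15 in Ifng-/-, against -0.19, -0.0041 and -0.065 in WT. Its spread within groups was wider than that of Aco1, with CD70TG 3 far below the other CD70TG arrays. The difference of 0.25 ± 0.14 in CD70TG against WT did not pass (limma, adjusted p = 0.269), and with CD70TG 3 and Ifng-/- 2 left out together it was 0.41 and passed (adjusted p = 0.0270). With array weights it was 0.38 and passed too (adjusted p = 0.0165). Ireb2 passed in only these 2 of 22 alternative settings, over which the limma adjusted p reached 0.644.

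Promoter sequence is shown for the genes that passed and for which it was at hand, because the comparison turns on interferon-gamma and its targets often carry known motifs near the start. RefSeq promoter windows of 300 bases (250 before and 50 after a start, build GRCm38.p6) were matched for 6 of the 9 genes, 14 windows in all. Each was searched on both strands for an interferon-gamma-activated site (TTCNNNGAA), an interferon-stimulated response element (GAAANNGAA), a GATA motif (AGATAA) and a CACCC box (CCACACCC). Matches of the first 2 motifs can share letters, and here none did. Below are the 250 bases before one start each of Ncoa4 (chr14:32165336-32165585), Tfr2 (chr5:137569590-137569839) and Aco1 (chr4:40143015-40143264), all on the plus strand and 5′ to 3′, with motif matches in capitals.
Ncoa4 (second of 3 windows): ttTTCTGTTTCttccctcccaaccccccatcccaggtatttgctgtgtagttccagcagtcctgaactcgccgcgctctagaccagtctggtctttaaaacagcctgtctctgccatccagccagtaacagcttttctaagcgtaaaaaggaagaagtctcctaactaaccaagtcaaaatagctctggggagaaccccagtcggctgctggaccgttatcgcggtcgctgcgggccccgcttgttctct
Tfr2 (first of 3 windows): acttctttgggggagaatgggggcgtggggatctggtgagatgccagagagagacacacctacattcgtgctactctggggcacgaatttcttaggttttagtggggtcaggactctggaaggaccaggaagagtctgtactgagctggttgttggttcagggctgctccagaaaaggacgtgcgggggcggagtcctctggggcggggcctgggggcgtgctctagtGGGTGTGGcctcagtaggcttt
Aco1 (only window): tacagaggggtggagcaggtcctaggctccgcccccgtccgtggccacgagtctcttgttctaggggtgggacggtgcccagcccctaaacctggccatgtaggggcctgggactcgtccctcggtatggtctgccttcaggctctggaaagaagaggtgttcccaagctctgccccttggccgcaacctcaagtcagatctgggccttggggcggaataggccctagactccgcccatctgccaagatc
The Ncoa4 window holds an interferon-stimulated response element match on the reverse strand, far from the start at position -248, the Tfr2 window a CACCC match on the reverse strand at position -22, and the Aco1 window no match. The only other match in the 14 windows was a GATA motif in the first Steap3 window. Of 32851 windows in the table, 8.3% held the interferon-gamma-activated site, 8.56% the response element, 11.2% the GATA motif and 3.56% the CACCC box on either strand. A match is a run of letters and says nothing of binding.

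Without Ifng, none of the 9 genes passed with the transgene. In CD70TG*Ifng-/- against Ifng-/-, 0 of the 9 rose, where 0.156% of all genes rose, and 0 fell, where 2.35% of all genes fell (limma). At an unadjusted p under 0.05 there were 4 of 9, and 2422 of all genes. Iscu came nearest at -0.33 ± 0.084 (limma, adjusted p = 0.0617), with all 3 CD70TG*Ifng-/- arrays below all 3 Ifng-/- arrays. It passed in 5 of 22 alternative settings, over which the limma adjusted p reached 0.212. One of them left out CD70TG 3 (limma, adjusted p = 0.0224), which is in neither group, so the difference itself stayed the same. Ncoa4 was -0.21 ± 0.079 (limma, adjusted p = 0.263) and Aco1 was -0.21 ± 0.079 (limma, adjusted p = 0.277), and in both the CD70TG*Ifng-/- arrays lay below all Ifng-/- arrays. Of all genes, 7.09% were lower with no overlap in this comparison. Tfr2, Steap3, Slc25a37 and Ireb2 lay between -0.029 and 0.057.

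The test of the difference itself, the transgene effect with Ifng minus that without, passed for Ncoa4 and Aco1. Of the 9 genes, 1 was higher by this interaction, where 1.61% of all genes were, and 1 was lower, where 0.281% were (limma). For Ncoa4 this difference was -0.56 ± 0.11 (SE, limma, adjusted p = 0.0250). For Aco1 it was 0.61 ± 0.11 (limma, adjusted p = 0.0180), since Aco1 was higher with the transgene when Ifng was intact and lower, without passing, when it was not. Iscu (-0.46 ± 0.12, adjusted p = 0.0603), Slc25a37 (-0.28 ± 0.11, adjusted p = 0.178) and Tfr2 (0.37 ± 0.17, adjusted p = 0.243) did not pass, so a difference of their transgene effects was not shown.

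Both interaction calls rested on a margin that single arrays could move. That of Ncoa4 was lost without WT 1 (limma, adjusted p = 0.0681), CD70TG 2 (0.0618), CD70TG 3 (0.0505), Ifng-/- 3 (0.0554), CD70TG*Ifng-/- 2 (0.0757) or CD70TG*Ifng-/- 3 (0.0809), and that of Aco1 without WT 1 (0.0587), CD70TG 2 (0.0596), CD70TG*Ifng-/- 2 (0.0567) or CD70TG*Ifng-/- 3 (0.0576). The sizes moved less: Ncoa4 lay between -0.69 and -0.42 and Aco1 between 0.55 and 0.66 over 21 alternative settings.

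**Figure D3:**
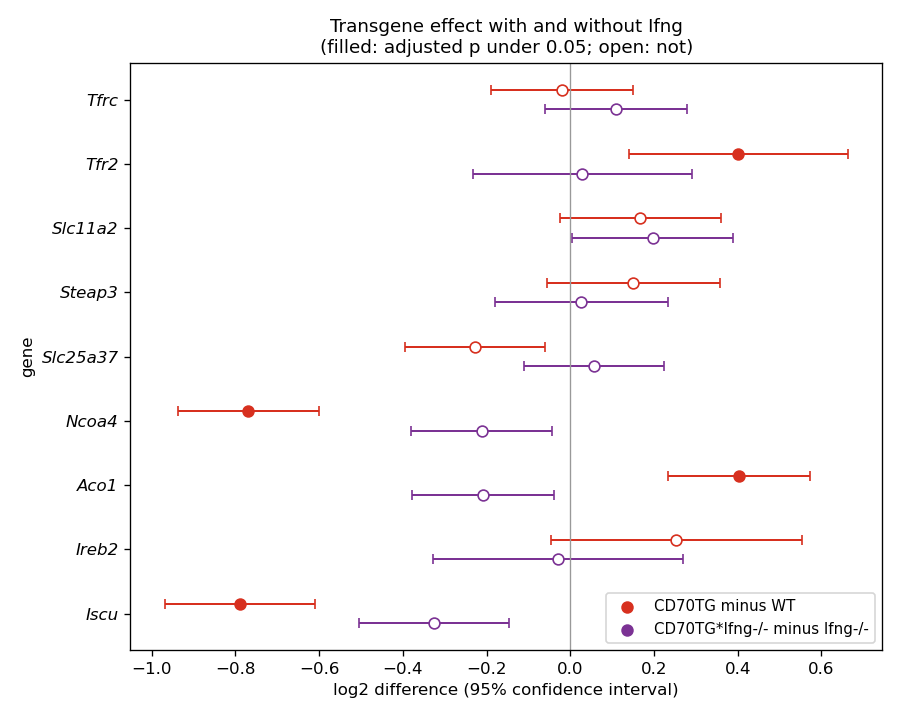
Log2 difference with its 95% confidence interval (horizontal axis) for each of the 9 genes, in CD70TG minus WT (red) and CD70TG*Ifng-/- minus Ifng-/- (purple); filled points passed at an adjusted p under 0.05. Ncoa4 and Iscu are further below 0 in the first comparison, and Aco1 lies on opposite sides of 0.

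Averaged over both Ifng genotypes, the transgene came with lower Ncoa4 (-0.49 ± 0.056, limma, adjusted p = 6.04e-05) and lower Iscu (-0.56 ± 0.059, limma, adjusted p = 3.39e-05). These were the 2 of 9 genes that fell, where 3.58% of all genes fell, and 0 rose, where 3.41% of all genes rose. For Aco1 the average was 0.098 ± 0.056 (limma, adjusted p = 0.367), as its differences in the 2 genotypes had opposite signs.

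Among transgenic mice, loss of Ifng came with higher Ncoa4 and Iscu. Ncoa4 rose 1.47-fold in CD70TG*Ifng-/- against CD70TG (0.56 ± 0.079, SE, n = 3 per group, limma, adjusted p = 0.00135) and Iscu 1.43-fold (0.52 ± 0.084, limma, adjusted p = 0.00428), and both passed in 22 of 22 alternative settings. They were 2 of the 9 genes, where 0.426% of all genes rose, and 0 of the 9 fell, where 0.988% of all genes fell. Aco1 was -0.26 ± 0.079 (limma, adjusted p = 0.168), with all CD70TG*Ifng-/- arrays below all CD70TG arrays, and did not pass. Of all genes, 8.27% were lower with no overlap here. This comparison shares the CD70TG arrays with the comparison against WT, so the 2 sets of values are not independent of each other.

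Loss of Ifng without the transgene changed none of the 9 genes past the threshold. In Ifng-/- against WT, 0 rose, where 0.00502% of all genes rose, and 0 fell, where 0% of all genes fell (limma), while 2 of the 9 and 2759 of all genes had an unadjusted p under 0.05. Those 2 were Aco1 at 0.35 ± 0.079 (limma, adjusted p = 0.217) and Tfr2 at 0.27 ± 0.12 (limma, adjusted p = 0.350), and in both all 3 Ifng-/- arrays lay above all 3 WT arrays, as did those of 9.43% of all genes. Ncoa4 was -0.00079 with a 95% confidence interval of -0.17 to 0.17, and Iscu was 0.052 ± 0.084.

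In CD70TG*Ifng-/- against WT, 0 of the 9 genes rose, where 0.446% of all genes rose, and 0 fell, where 1.34% of all genes fell (limma), with 4 of the 9 and 3213 of all genes at an unadjusted p under 0.05. Iscu (-0.27 ± 0.084, adjusted p = 0.129) and Ncoa4 (-0.21 ± 0.079, adjusted p = 0.199) lay below all WT arrays without passing. Tfr2 (0.30 ± 0.12, adjusted p = 0.239) and Slc11a2 (0.21 ± 0.090, adjusted p = 0.258) were higher without passing. All CD70TG*Ifng-/- arrays lay above all WT arrays for Slc11a2 and for Aco1 (0.14 ± 0.079, adjusted p = 0.403). Of all genes, 8.6% were lower and 14.5% higher than WT with no overlap. In group means, Ncoa4 stood at -0.14 ± 0.12 in CD70TG*Ifng-/-, -0.70 ± 0.094 in CD70TG, 0.071 ± 0.035 in Ifng-/- and 0.072 ± 0.051 in WT (SD, n = 3 each). Iscu stood at -0.13 ± 0.052 in CD70TG*Ifng-/-, -0.64 ± 0.17 in CD70TG, 0.20 ± 0.031 in Ifng-/- and 0.15 ± 0.071 in WT. Both genes were thus lowest in CD70TG and next in CD70TG*Ifng-/-, and the means of Ifng-/- and WT did not differ beyond their spread. The order of Aco1 was CD70TG (0.18 ± 0.089), Ifng-/- (0.13 ± 0.10), CD70TG*Ifng-/- (-0.079 ± 0.031) and WT (-0.22 ± 0.10), with the first pair overlapping.

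For the 4 genes that passed in a comparison between groups, the genes with the most similar values were found by the mean absolute difference in log2 value over the 12 arrays. Those closest to Ncoa4 were Riok3, an atypical kinase (0.047), the peroxide-degrading catalase gene Cat (0.059) and Serinc1 (0.061), where Ncoa4 itself spanned 0.93. Those closest to Iscu were the securin gene Pttg1 (0.062), Cat again (0.065) and the adiponectin receptor gene Adipor1 (0.065). Riok3 was -0.93, Cat -0.72 and Pttg1 -0.95 in CD70TG against WT, values that the choice by likeness to Ncoa4 and Iscu largely sets. Aco1 was most like Dna2, a nuclease and helicase (0.054), Dynll1, a dynein light chain (0.057), and Arfrp1 (0.059). Tfr2 was most like Smarcb1, a subunit of a chromatin remodelling complex (0.032), Abca3 (0.036) and Pa2g4 (0.046).

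The other lists of iron genes were set beside the 9 genes. Of all genes, 8.23% rose and 2.7% fell in CD70TG against WT. In CD70TG*Ifng-/- against Ifng-/-, 0.156% rose and 2.35% fell. These shares stand beside every list count below for these 2 comparisons. Of 15 measured partners of uptake and the endosome, 1 rose and 2 fell in CD70TG against WT (median 0.10), and 0 rose and 2 fell in CD70TG*Ifng-/- against Ifng-/- (median -0.012). Trf, the gene of transferrin itself, fell in both, with log2 differences of -2.35 with Ifng (SE 0.19, limma, adjusted p = 9.34e-06) and -3.10 without it (adjusted p = 3.46e-07). Hfe, which binds the transferrin receptor, was -0.48 ± 0.12 (limma, adjusted p = 0.0196) and -0.79 ± 0.12 (adjusted p = 0.00109). Exoc6, an exocyst subunit whose mutation impairs transferrin cycling in mouse red cells, rose by 0.39 in CD70TG against WT (limma, adjusted p = 0.0230).

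Of 17 genes of iron storage, export and haem recycling, 1 rose and 4 fell in CD70TG against WT, and 0 rose and 6 fell in CD70TG*Ifng-/- against Ifng-/- (medians -0.065 and -0.059). Hmox1, the inducible haem oxygenase, was -3.16 ± 0.17 and -3.68 ± 0.17 in these 2 comparisons (limma, adjusted p = 5.72e-07 and 2.31e-08). The iron exporter Slc40a1 was -1.20 ± 0.14 and -1.09 ± 0.14 (adjusted p = 1.57e-04 and 2.88e-04). The ferritin light chain Ftl1 was -0.54 ± 0.078 and -0.38 ± 0.078 (adjusted p = 9.16e-04 and 0.0152). Of 14 iron regulators, 0 passed in the first comparison (median -0.060) and 3 fell in the second (median -0.042): the hypoxia-inducible factor Hif1a (-0.66 ± 0.15, adjusted p = 0.0269), the receptor Bmpr2 (-0.46 ± 0.10, adjusted p = 0.0273) and the signal transducer Smad4 (-0.47 ± 0.12, adjusted p = 0.0478).

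Of 20 measured partners of Iscu in iron-sulphur cluster assembly, 7 rose, 2 fell and 11 did not pass in CD70TG against WT (median 0.26), and 1 rose and 0 fell in CD70TG*Ifng-/- against Ifng-/- (median 0.057). Of all genes, 8.23% rose and 2.7% fell in the first comparison, and 0.156% rose and 2.35% fell in the second. Among those that rose were the mitochondrial chaperone Hspa9 (0.80 ± 0.12, limma, adjusted p = 0.00102) and the cluster carrier Nfu1 (0.57 ± 0.081, adjusted p = 8.74e-04), while the assembly protein Isca1 fell (-0.58 ± 0.092, adjusted p = 0.00184). Without Ifng the gene that rose was Ciapin1 (0.33 ± 0.080, adjusted p = 0.0455). Of 12 genes of haem synthesis, 0 rose and 3 fell in CD70TG against WT (median 0.17): the mitochondrial carrier Slc25a39 (-0.70), the erythroid first enzyme Alas2 (-0.43) and the iron-inserting ferrochelatase Fech (-0.48; limma, adjusted p = 8.50e-05, 0.00393 and 0.00503). In CD70TG*Ifng-/- against Ifng-/-, 0 rose and 1 fell, Slc25a39 (-0.43 ± 0.075, adjusted p = 0.00390; median of the list 0.072). In the higher level class lay 12 of the 20 cluster assembly genes and 11 of the 12 haem synthesis genes. All genes of that class had a median of 0.19 in CD70TG against WT, so the medians of these 2 lists are not particular to them. These counts are a description and no list was tested as a whole.

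**Figure D4:**
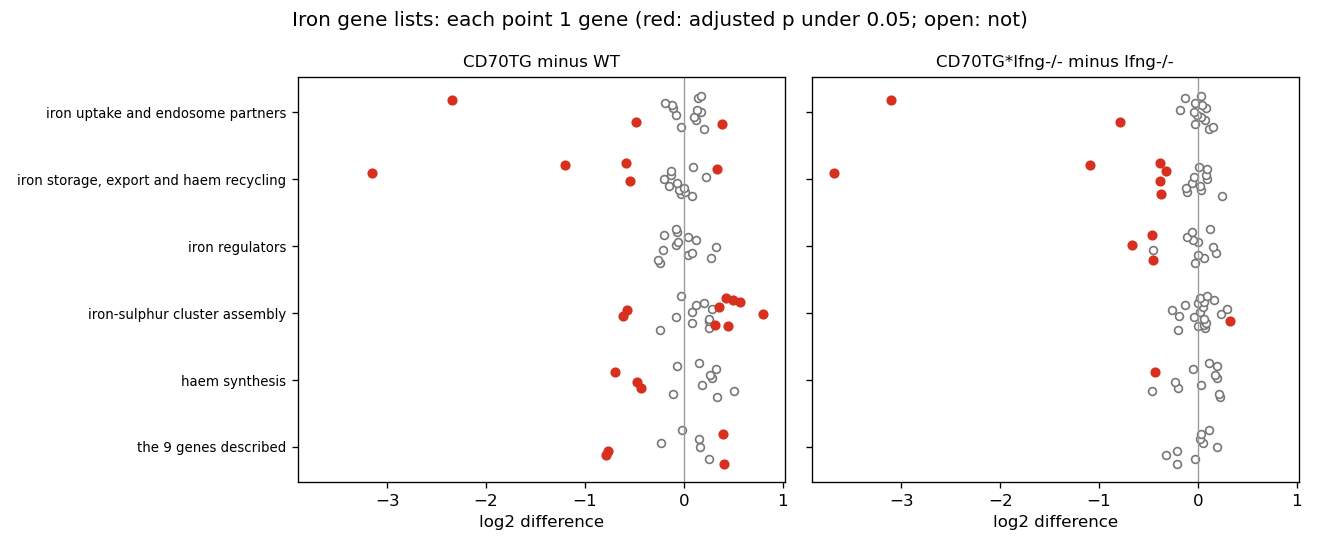
Log2 difference (horizontal axis) of each gene of 5 iron and haem lists and of the 9 genes, in CD70TG minus WT (left) and CD70TG*Ifng-/- minus Ifng-/- (right); red points passed at an adjusted p under 0.05. Hmox1 and Trf lie near -3 or beyond -2 in both panels, while Ncoa4 and Iscu passed in the left panel and not in the right.

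Markers of erythroid stage and of other cells moved in the same comparisons. The shares of all genes were again 8.23% higher and 2.7% lower in CD70TG against WT, and 0.156% and 2.35% in CD70TG*Ifng-/- against Ifng-/-. Of 18 late erythroid genes, 0 rose and 6 fell in CD70TG against WT (median -0.12), among them Bpgm, which makes the red cell's bisphosphoglycerate (-0.65 ± 0.075, limma, adjusted p = 1.51e-04), the ubiquitin ligase Ube2o (-0.73) and the mitophagy receptor Bnip3l (-0.59). None of the 18 passed in CD70TG*Ifng-/- against Ifng-/- (limma, median 0.11). In CD70TG*Ifng-/- against CD70TG 4 rose and 0 fell, where 0.426% of all genes rose and 0.988% fell. The mean of the list ran -0.013 to 0.065 over the arrays of CD70TG*Ifng-/-, -0.32 to -0.094 in CD70TG, -0.082 to 0.065 in Ifng-/- and -0.013 to 0.059 in WT, so the CD70TG arrays were the lowest. Of 12 early erythroid and progenitor genes, 2 rose and 0 fell in CD70TG against WT, Myc (1.25 ± 0.17, limma, adjusted p = 4.67e-04) and the cell cycle kinase Cdk6 (0.83 ± 0.15, adjusted p = 0.00327). The other 10 did not pass, among them Kit (0.44 ± 0.17, adjusted p = 0.121), and the list had a median of 0.17. Without Ifng 0 passed (median 0.043). The part of erythroid stage in the values of Ncoa4, Iscu and Aco1 was not tested.

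Macrophage markers fell with the transgene in both Ifng genotypes: 19 of 24 fell in CD70TG against WT and 20 of 24 in CD70TG*Ifng-/- against Ifng-/-, and 0 rose (medians -1.47 and -2.32). Their mean ran -1.03 to -0.99 in CD70TG*Ifng-/-, -0.82 to -0.49 in CD70TG, 0.79 to 1.32 in Ifng-/- and 0.58 to 1.11 in WT. The lowest means were thus those of the CD70TG*Ifng-/- arrays. Hmox1, Slc40a1 and Trf fell in both comparisons. B cell markers fell in 11 of 12 with Ifng and 2 of 12 without it (medians -0.84 and -0.35). Of 14 neutrophil markers 1 rose and 4 fell with Ifng and 0 passed without it (medians -1.24 and -0.90). They did not move one way in CD70TG against WT, where they ran from -1.88 to 1.09. Prtn3 rose (1.08 ± 0.28, limma, adjusted p = 0.0265), while Retnlg (-1.88 ± 0.46, adjusted p = 0.0200) was among those that fell. Of 13 T cell and NK markers 1 fell in each comparison, of 9 eosinophil, basophil and mast cell markers 3 and 1 fell, and of 6 megakaryocyte markers none passed in either. The part of other cell types in the values of the 9 genes was not tested.

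**Figure D5:**
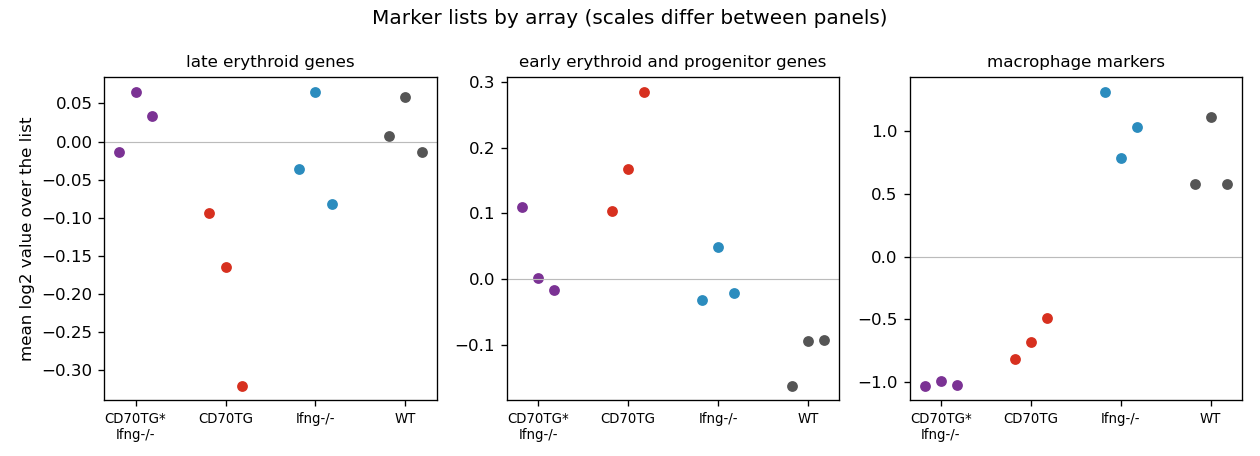
Mean log2 value over 18 late erythroid genes, 12 early erythroid and progenitor genes and 24 macrophage markers (vertical axes, which differ in scale) on each array of CD70TG*Ifng-/-, CD70TG, Ifng-/- and WT. Late erythroid means are lowest in CD70TG, and macrophage means are below 0 in all 6 arrays with the transgene.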

How the data were processed

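The deposited log2 values were made by the authors with RMA, per the submitters' processing notes, and its version is not given in the sources used here. The deposited values hold a median of 0 for each of 28815 probe sets over the 12 arrays, so absolute levels are not held; the log2 base is taken from what RMA gives. A rounding step left in the numbers (tolerance 0.05 of a step, values under 0.001 left out) showed whether a probe set lay at 8 or above before centring. Gene names come from GEO's annotation of the platform, which can be old: 21780 had 1 symbol, 1605 several and 5430 none in the table used. They were averaged per gene (998 of 19935 genes had several), and no gene was filtered out.

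Group means were fitted over 12 arrays by limma 3.58.1 run in R 4.3.3 with lmFit and eBayes (residual degrees of freedom 8, prior 6.23), two-sided, with Benjamini-Hochberg adjustment over 19935 genes and a threshold of 0.05. The script was tested on simulated data. The contrasts were each transgene effect, each effect of Ifng loss, CD70TG*Ifng-/- against WT, the interaction and the mean transgene effect. The alternatives were quantile normalization, centring by array or level class, other uses of probe sets, robust eBayes, array weights, only the groups compared, a replicate block and left-out arrays. The members and lists were chosen with earlier results of these data known. Named besides the 9 genes were Cd70, Ifng, the 3 genes most like each member that passed, and up to 3 genes of each list with the smallest p in either transgene comparison. Samples were grouped by their labels. Same-numbered arrays deviated together no more than others did. Their correlations were -0.40 to 0.31 (6 of 18 over 0.1), against -0.52 to 0.53 (13 of 36) for arrays of other numbers. No pairing by replicate number was thus seen, but groups of 3 arrays cannot exclude one.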

Additional observations from a re-analysis of the deposited data

Results flagged for a closer look

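The transgene effect differed between the Ifng genotypes for 2 of the 9 genes, by limma's interaction term. For Ncoa4 the effect was -0.77 in CD70TG against WT and -0.21 in CD70TG*Ifng-/- against Ifng-/-, a difference of -0.56 on the log2 scale (adjusted p = 0.0250), and all 3 transgenic arrays lay below the 3 others in both. Of all genes, 13.5% were lower with no overlap when Ifng was intact and 7.09% when it was absent. For Aco1 the effects were 0.40 and -0.21, a difference of 0.61 (limma, adjusted p = 0.0180), with all 3 transgenic arrays above the 3 others with Ifng, where 17.6% of all genes were, and below them without it.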

How the results depend on the processing

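The 10 values of the 9 genes that passed kept their direction in all 216 alternative values, and 190 of these passed too. The 26 that did not pass were 12 for Tfr2 in CD70TG against WT, 9 for the interaction of Ncoa4 and 5 for that of Aco1. Ncoa4, Iscu and Aco1 in CD70TG against WT, Ncoa4 and Iscu in CD70TG*Ifng-/- against CD70TG and both in the mean transgene effect passed in every setting tried. The count of genes that passed was 4 in CD70TG against WT, 2 in CD70TG*Ifng-/- against CD70TG, 2 by interaction, 2 in the mean transgene effect and 0 in the other 3 comparisons. In CD70TG against WT it was 6 with array weights (Slc25a37 and Ireb2 besides) and 3 to 5 in every other setting. In CD70TG*Ifng-/- against Ifng-/- it was 1 (Iscu) with quantile normalization, with centring within the level classes, with array weights and with CD70TG 3 and Ifng-/- 2 left out together, and 0 to 1 without 1 array at a time. By interaction it was 1 (Aco1) with quantile normalization, 4 (Slc25a37, Ncoa4, Aco1 and Iscu) with centring within the level classes, 3 (Ncoa4, Aco1 and Iscu) with array weights, 0 with the 2 arrays left out together and 0 to 2 without 1 array at a time. In CD70TG*Ifng-/- against CD70TG it was 4 (Ncoa4, Aco1, Ireb2 and Iscu) with array weights. In CD70TG*Ifng-/- against WT it was 1 with centring within the level classes (Iscu), with array weights (Tfr2) and with the 2 arrays left out together (Iscu). For the mean transgene effect it was 5 with array weights (Tfr2, Slc11a2, Ncoa4, Ireb2 and Iscu), 4 with the 2 arrays left out together (Tfr2, Slc11a2, Ncoa4 and Iscu) and 2 to 4 without 1 array at a time, where the 4 came without Ifng-/- 2. With the replicate block, which rests on numbers by which no pairing was seen, the interaction count was 1 (Aco1). There Ncoa4 had a limma adjusted p of 0.0614 by interaction, and Tfr2 in CD70TG against WT had one of 0.0820. The differences that changed sign passed in no setting tried. With quantile normalization, Slc11a2 was -0.023 and Ncoa4 was 0.013 in Ifng-/- against WT. With each array centred on its median, Ncoa4 was 0.0078 in Ifng-/- against WT and Steap3 was -0.0056 in CD70TG*Ifng-/- against CD70TG. With centring within the level classes, Slc11a2 was -0.082 and Iscu was -0.045 in Ifng-/- against WT, Tfrc was -0.022 and Ireb2 was -0.027 in CD70TG*Ifng-/- against WT, Steap3 was -0.0067 by interaction and Tfrc was -0.038 in the mean transgene effect. With array weights, Tfrc was 0.042 in CD70TG against WT, Ireb2 was 0.077 in CD70TG*Ifng-/- against Ifng-/-, Slc11a2 was -0.0024 in Ifng-/- against WT, Slc11a2 was -0.011 in CD70TG*Ifng-/- against CD70TG and Slc11a2 was 0.0083 by interaction. With CD70TG 3 and Ifng-/- 2 left out together, Tfrc was 0.053 in CD70TG against WT, Ireb2 was 0.075 in CD70TG*Ifng-/- against Ifng-/-, Slc11a2 was -0.057 and Ncoa4 was 0.0068 in Ifng-/- against WT and Slc11a2 was -0.020 in CD70TG*Ifng-/- against CD70TG. Without 1 array at a time, the ranges of the values that changed sign were -0.057 to 0.093 for Slc11a2, -0.021 to 0.028 for Ncoa4 and -0.045 to 0.021 for Tfrc in Ifng-/- against WT, -0.10 to 0.048 for Slc11a2 by interaction and -0.061 to 0.053 for Tfrc in CD70TG against WT, and -0.068 to 0.078 for Steap3, -0.020 to 0.10 for Slc11a2 and -0.23 to 0.016 for Tfr2 in CD70TG*Ifng-/- against CD70TG, -0.094 to 0.15 for Tfr2, -0.062 to 0.095 for Steap3 and -0.13 to 0.087 for Ireb2 in CD70TG*Ifng-/- against Ifng-/- and -0.016 to 0.20 for Ireb2 in CD70TG*Ifng-/- against WT. A fit to the compared groups alone gives no separate value for the interaction and the mean effect, which use all groups. Over all genes the count of calls moved with the setting: between 853 (without WT 1) and 5337 (array weights) for 2179 in CD70TG against WT, 297 (without CD70TG*Ifng-/- 3) and 1439 (array weights) for 499 in CD70TG*Ifng-/- against Ifng-/-, 1 and 42 (without WT 2) for 1 in Ifng-/- against WT, 136 (without CD70TG*Ifng-/- 3) and 3519 (array weights) for 282 in CD70TG*Ifng-/- against CD70TG, 171 (without CD70TG*Ifng-/- 3) and 2044 (array weights) for 357 in CD70TG*Ifng-/- against WT, 82 (without WT 1) and 2040 (array weights) for 377 by interaction, and 772 (without CD70TG*Ifng-/- 1) and 4503 (array weights) for 1392 in the mean effect. The cause of these moves was not tested. Signal over background is known only as the 2 level classes, and p-values rest on 3 mice a group.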
